A study of Mus musculus with 2 samples.

Results

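The 10 genes described here are the receptor, SMAD and ID1 core of the TGF-beta pathway in the mouse line G1E, namely Tgfbr1, Tgfbr2, Smad1, Smad2, Smad3, Smad4, Smad5, Smad6, Smad7 and Id1. They were chosen by name: the Ensembl identifiers of the deposited gene tables were given their GENCODE symbols, and these 10 were taken from 43346 gene entries. G1E cells are immortalised, and the labels describe them as male, postnatal erythroid progenitors that are Gata1-, without saying how Gata1 was altered. RNA with a poly(A) tail was sequenced from both ends in 2 libraries of this line, replicate 1 and replicate 2, which form 1 group. The labels name no treatment and no other group, so the values below are levels, ratios within a library and differences between the libraries. Both libraries cite a shared cell sample, so the spread between them may be technical, and it stands for 1 line only.

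In the TGF-beta family, a ligand dimer brings type II and type I receptor kinases together, and the type II kinase switches on the type I kinase. The activated type I receptor phosphorylates receptor-regulated SMADs, SMAD2 and SMAD3 for TGF-beta and activin and SMAD1, SMAD5 and SMAD8 (Smad9) for bone morphogenetic proteins (BMPs), and these enter the nucleus with SMAD4. SMAD6 and SMAD7 are inhibitory members that block the receptors, and Id1 is a widely used target gene of the BMP branch. In blood formation the pathway is known for restraining the growth of early progenitors and for roles in red cell maturation.

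Summed over genes, expected counts came to 61982634 for replicate 1 and 80658648 for replicate 2. At that depth a count of 0 allows up to 3 counts, which is 0.0484 and 0.0372 CPM of the totals. Such limits and all count intervals cover counting error only. Gata1 itself was at 48.0 and 46.6 TPM in the libraries labelled Gata1-, where TPM is abundance scaled by transcript length and library total, and a gene total does not tell whether the RNA is intact. Of 12 erythroid progenitor markers, 11 reached 1 TPM in each library, and the list's sum was 7579 TPM in replicate 1 and 8015 TPM in replicate 2. Hba-a1 gave 3881 and 4446 TPM of that sum, of which 64.4 and 37 TPM were from protein-coding transcripts, and the median marker was at 175.5 and 155 TPM. Markers of other cells had lower sums, at 40.6 and 49.5 TPM for 7 megakaryocyte genes and 3.35 and 3.48 TPM for 6 mast cell genes. For 8 neutrophil and monocyte genes the sums were 2.51 and 3.47 TPM. Single genes did not all follow the sums. Of the megakaryocyte genes 4 were detected, led by Itga2b at 22.99 and 27.95 TPM. The erythroid markers Tfrc (3.42 and 13.82 TPM), Slc4a1 (2.3 and 2.9 TPM) and Alas2 (0.29 and 0.58 TPM) lay below Itga2b in each library. By gene TPM, 9 of the 12 erythroid markers reached 10 TPM in replicate 1 and again in replicate 2. Of the 7 megakaryocyte genes only Itga2b did so. From protein-coding transcripts alone Itga2b had 7.09 TPM in replicate 1 and 9.9 TPM in replicate 2, so it fell short of 10 TPM. Tfrc had 3.29 and 11.88 TPM from such transcripts, below Itga2b in replicate 1 and above it in replicate 2. The 5 lymphocyte, 6 fibroblast and 5 endothelial markers summed to 0.04 TPM or less per list and library, with Cd3e, Col1a2, Pecam1 and Cdh5 at 0 counts.

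The 10 genes spanned the range from over 100 TPM to 0. Id1 was highest at 108 and 111 TPM in replicate 1 and replicate 2, followed by Smad4 at 21.8 and 24.6 TPM. Smad5, Smad2, Smad6 and Tgfbr1 lay between 1 and 5 TPM, Smad3 and Smad1 lay below 1 TPM, Smad7 was at 0.01 and 0.03 TPM, and Tgfbr2 was listed at 0 in both libraries. In all, 6 of the 10 were detected, meaning 1 TPM or more in each library, against 40% of the 21474 protein-coding genes in the tables, and 2 were at 10 TPM or more, against 24.3%. Counts of 0 in both libraries were found for 1 of the 10, against 39.4% of protein-coding genes. Among the 8581 detected protein-coding genes Id1 stood at percentile 86.0 and Smad4 at 55.8, whereas Smad5 and Smad2 stood at 18 and 16 and Smad6 and Tgfbr1 at 5.30 and 4.44. In the order of mean TPM, the ranges of the libraries overlapped for Smad5 with Smad2 and for Smad6 with Tgfbr1, so neither pair can be ordered. The ranges of the other neighbours did not overlap, but Smad7 and Tgfbr2 lay 0.01 TPM apart at the nearest, less than the spread of Smad7 itself, and are not ordered either. These are bulk values, in which fewer cells with an RNA and less of it per cell cannot be told apart.

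**Figure D1:**
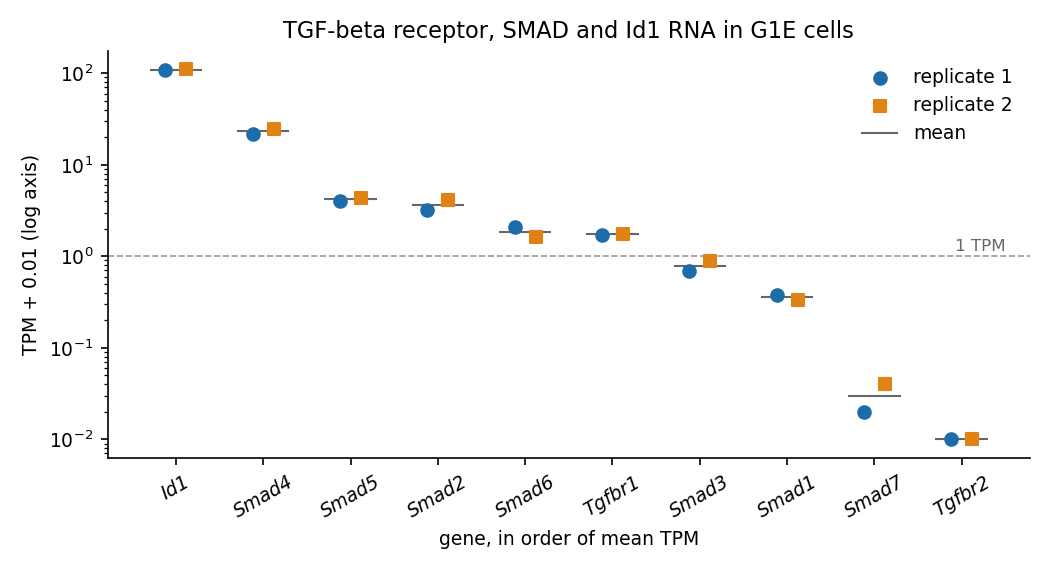
TPM (plus 0.01, log axis) of the 10 genes in replicate 1 (circles) and replicate 2 (squares), with their mean as a line and 1 TPM dashed. Id1 and Smad4 stand above 10 TPM in both libraries, 4 genes lie just above the dashed line, and Tgfbr2 sits at the bottom because it is listed at 0.

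Of the ligands, only Tgfb1 was present at an appreciable level. Tgfb1, which encodes the main TGF-beta form of blood cells, had 1770 and 1485 TPM from 200589 counts in replicate 1 and 212688 in replicate 2, and it ranked at percentile 99.1 of detected protein-coding genes. Tgfb2 was at 0.03 and 0.02 TPM and Tgfb3 at 0.14 and 0.15 TPM. None of 13 activin, BMP and GDF ligand genes was detected, and 7 of them, Inha, Inhba, Inhbb, Bmp2, Bmp4, Bmp6 and Gdf10, had no counts in either library. The highest of that list were Bmp8a (0.03 and 0.10 TPM), Gdf3 (0.08 and 0.04 TPM) and Gdf9 (0.02 and 0.10 TPM).

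TGF-beta is secreted in a latent complex, and 4 of 10 genes for latency and release were detected. Nrros, whose product holds latent TGF-beta on myeloid cells, had 126 and 109 TPM in replicate 1 and replicate 2, of which 60.4 and 57.8 TPM were from protein-coding transcripts. Furin, the protease that cuts the TGF-beta precursor, had 32.5 and 30.7 TPM, and Itgav, a chain of integrins that release TGF-beta, had 23.8 and 20 TPM. The other integrin gene of the list, Itgb8, named after its values were seen, had 1 count in replicate 1 and 0 counts in replicate 2. Of the latent binding protein genes, Ltbp4 was detected at 1.42 and 1.04 TPM (250 and 301 counts), of which 0.85 and 0.82 TPM were from protein-coding transcripts. Ltbp1 had no counts, and Ltbp3 had 0 counts in replicate 1 and 11 in replicate 2. Among 8 genes for antagonists that bind ligands outside the cell, 1 was detected. This was Twsg1, which modulates BMPs, at 11.4 and 13.6 TPM. Nbl1 followed at 0.18 and 0.06 TPM and Fstl3 at 0.01 and 0.05 TPM, while Fst, Nog, Chrd and Grem1 had no counts.

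The receptor pair for TGF-beta was split. Tgfbr1, the type I kinase (ENSMUSG00000007613.11, plus strand, mm10 chr4:47353222-47414931), had 1.72 TPM from 522 counts in replicate 1 and 1.75 TPM from 672 counts in replicate 2, a mean of 1.74 ± 0.0212 TPM (SD, n = 2). Tgfbr2, the type II kinase that binds TGF-beta (ENSMUSG00000032440.8, minus strand, mm10 chr9:116084293-116175360), had 0 counts in both libraries and in both of its annotated transcripts. At its effective length, 3 counts would be 0.0117 TPM in replicate 1 and 0.00922 TPM in replicate 2. That length is from annotation M4, in which Tgfbr2-201 and Tgfbr2-202 are 4710 and 4785 bases long, against 3476 and 8092 bases in M21. The listed Tgfbr1 TPM was 147-fold that limit in replicate 1 and 190-fold in replicate 2. These folds leave out the error of Tgfbr1 and are not strict lower bounds. The authors' intervals reached up to 0.0181 and 0.0145 TPM for Tgfbr2 and down to 1.61 and 1.66 TPM for Tgfbr1. Tgfbr2 RNA was thus not detectable at this depth, while Tgfbr1 was seen in each library.

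Most Tgfbr1 RNA was assigned to the full-length coding transcript. Tgfbr1-201 (5756 bases, 9 exons, 1509 coding bases) took 95.7% of the gene's TPM in replicate 1 and 95.2% in replicate 2. The form Tgfbr1-202, named here after its values were seen because of a small in-frame difference, took 0% and 0.55%. The forms differ at the start of exon 3, where Tgfbr1-201 has 12 more coding bases (mm10 chr4:47393247-47393258, plus strand), shown in capitals between the shared exon ends.
Tgfbr1-201: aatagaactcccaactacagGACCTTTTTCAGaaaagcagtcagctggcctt
Tgfbr1-202: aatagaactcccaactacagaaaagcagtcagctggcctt
By the authors' estimate, RNA with the 12 bases was therefore nearly all of the Tgfbr1 RNA. The tables hold no counts of reads across this junction, and Tgfbr1-202 also differs in its ends, so the share rests on the whole transcript.

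The upstream sequences of the 2 receptor genes are shown because their RNA levels lay so far apart. The windows are the 250 bases before the RefSeq start (GRCm38.p6), chr4:47352972-47353221 on the plus strand for the upstream start of Tgfbr1 and chr9:116175364-116175613 on the minus strand for Tgfbr2, each written in the direction of transcription. Capitals mark GGCGCC, a word that SMAD proteins can bind.
Tgfbr1: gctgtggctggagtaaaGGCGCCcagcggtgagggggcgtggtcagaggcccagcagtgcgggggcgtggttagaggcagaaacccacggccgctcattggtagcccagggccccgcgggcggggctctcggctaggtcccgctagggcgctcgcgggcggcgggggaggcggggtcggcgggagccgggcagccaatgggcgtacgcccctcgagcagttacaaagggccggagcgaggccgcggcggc
Tgfbr2: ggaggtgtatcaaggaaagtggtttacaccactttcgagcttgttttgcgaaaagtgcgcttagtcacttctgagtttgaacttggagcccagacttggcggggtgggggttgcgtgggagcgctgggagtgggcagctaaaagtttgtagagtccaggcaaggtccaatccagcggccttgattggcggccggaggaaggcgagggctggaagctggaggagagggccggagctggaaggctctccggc
The Tgfbr1 window is 74.8% G and C with 29 CpG dinucleotides, and the Tgfbr2 window is 58.4% with 12, where the median of 32851 such windows is 52.4% and 6. GGCGCC, which reads the same on both strands, occurs once in the Tgfbr1 window and not in that of Tgfbr2, and 9.59% of all windows hold it. The GATA factor motif, searched on both strands as A or T, then GATA, then A or G, is in neither window, and 26.5% of all windows hold it. These are descriptions of letters and say nothing of which factors act there.

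Most other receptors of the family were not detected on the type I side. Of 7 type I genes, only Tgfbr1 was detected. The BMP and activin type I receptor genes Acvr1, Bmpr1a and Bmpr1b had no counts in either library, and the highest after Tgfbr1 were Acvrl1 (0 and 0.03 TPM), Acvr1b (0.01 and 0 TPM) and Acvr1c (0 counts in replicate 1 and 1 count in replicate 2). Of 5 type II genes, 2 were detected. Acvr2b, an activin receptor, had 5.4 and 4.92 TPM, Bmpr2, the BMP receptor, had 3.00 and 3.42 TPM, and Acvr2a had 0.17 and 0.24 TPM. The most abundant type II receptor RNAs were therefore those of activin and BMP receptors rather than Tgfbr2, with ranges that did not overlap between Acvr2b and Bmpr2.

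Of 9 genes for co-receptors and proteins that bind receptors, 4 were detected. Fkbp1a, which binds and holds back type I receptors, had 198 and 185 TPM, of which 18.4 and 17.1 TPM were from protein-coding transcripts. Strap, which binds the receptors with SMAD7, had 37.5 and 26.5 TPM, and Eng, the co-receptor endoglin, had 5.19 and 6.34 TPM. Tgfbr3, the co-receptor betaglycan that presents ligand to the type II receptor, had no counts, nor did Rgma, a BMP co-receptor, or Zfyve9, which brings SMAD2 and SMAD3 to the receptor.

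**Figure D2:**
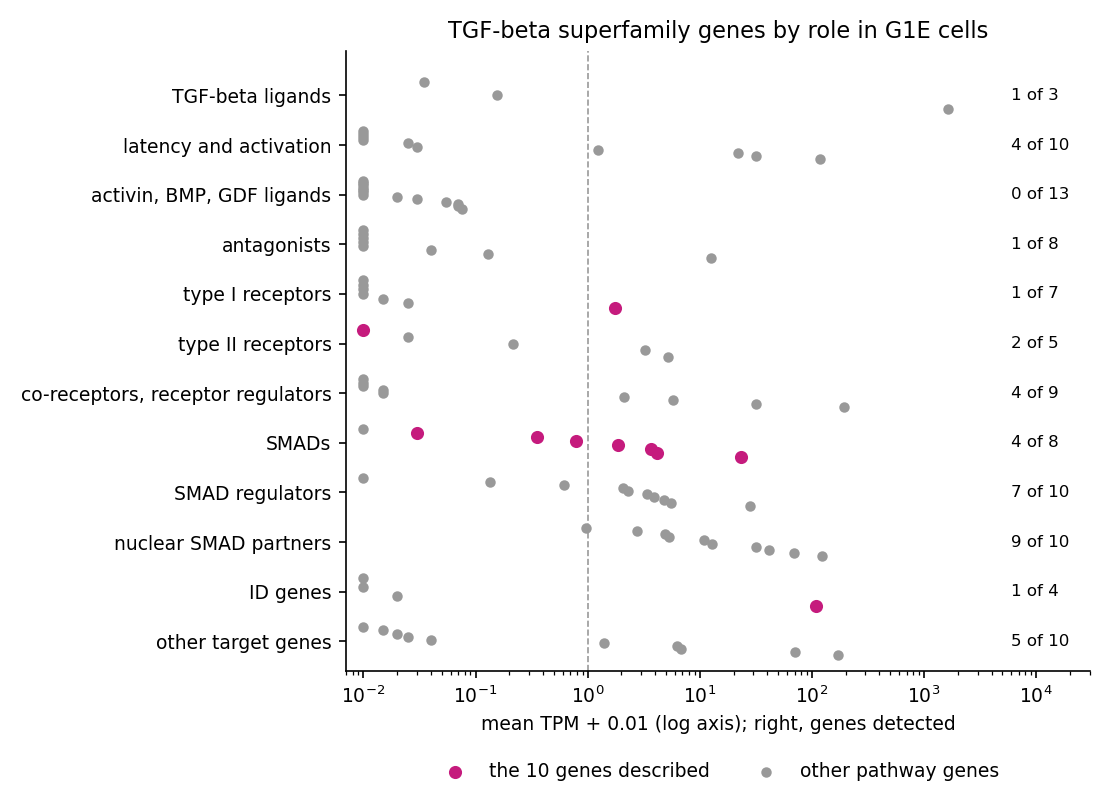
Mean TPM over both libraries (plus 0.01, log axis) of the 10 genes and of 87 other pathway genes, by role, with 1 TPM dashed and the number detected in each role at the right. All type I receptor genes but Tgfbr1 lie left of the dashed line, as do all ID genes but Id1, and Tgfbr2 sits at the left edge.

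The receptor-regulated SMADs were each led by 1 member per branch. In the BMP branch, Smad5 (ENSMUSG00000021540.12) had 4.0 TPM from 404 counts in replicate 1 and 4.36 TPM from 544 counts in replicate 2. Smad1 (ENSMUSG00000031681.10) had 0.37 TPM from 61 counts and 0.32 TPM from 67 counts, and Smad9 had no counts. In the TGF-beta and activin branch, Smad2 (ENSMUSG00000024563.11) had 3.18 TPM from 350 counts and 4.10 TPM from 528 counts, while Smad3 (ENSMUSG00000032402.8) had 0.68 TPM from 188 counts and 0.87 TPM from 263 counts. By gene TPM, Smad5 thus exceeded Smad1, and Smad2 exceeded Smad3, in each library with no overlap of ranges. With protein-coding transcripts only, the lead of Smad5 was smaller, at 0.48 and 0.57 TPM against 0.37 and 0.32 TPM for Smad1. The summed TPM of Smad1 and Smad5 was close to that of Smad2 and Smad3, with a log2 ratio of 0.18 in replicate 1 and -0.09 in replicate 2 (0.05 ± 0.19, SD, n = 2). The sign of that ratio changed between the libraries.

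That balance did not hold for coding RNA alone, because most Smad5 TPM was assigned to transcripts annotated as not coding. Smad5-206, annotated as a retained intron (1398 bases, 5 exons), took 86.6% of Smad5 TPM in replicate 1 and 49.7% in replicate 2. Smad5-204, a processed transcript of 1385 bases, took 0% and 23.1%, and Smad5-205, a processed transcript of 572 bases, took 1.38% and 14.0%. The protein-coding transcripts Smad5-201, Smad5-202 and Smad5-203 together took 12% and 13.2%, or 0.48 and 0.57 TPM, although they held 39.6% and 45.2% of the gene's expected counts. How the remaining TPM was divided among the 3 other transcripts differed widely between the libraries, while their sum, 88.0% and 86.8%, did not.

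The difference between the coding and the intron-holding Smad5 RNA starts at the end of exon 5. In Smad5-201 the last base of exon 5 (mm10 chromosome 13, plus strand, 56733071) is joined to exon 6, and in Smad5-206 the RNA runs on for 143 bases into the intron (chr13:56733072-56733214) and ends. Bases after exon 5 are in capitals.
Smad5-201: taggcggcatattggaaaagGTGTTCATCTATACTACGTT
Smad5-206: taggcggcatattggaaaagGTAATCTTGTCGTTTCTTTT
Exons 2 to 4 and the bases of exon 5 up to that point are common to both, so reads there were divided by the authors' model. The forms are set apart by the 143 intron bases of Smad5-206, by exon 6 (257 bases) and exon 7 (5043 bases) of Smad5-201, and by their starts. Smad5-204 also ends within this intron, at base 56733125. Across these libraries, transcripts not annotated as coding took a median of 0.358% and 0.557% of TPM over 8580 detected protein-coding genes with such values, and over 50% in 19.2% and 18.4% of them. Smad5 stood at percentiles 94.0 and 94.6 of that distribution. With only protein-coding transcripts, chosen after seeing the data, the log2 ratio of Smad1 plus Smad5 to Smad2 plus Smad3 was -2.18 in replicate 1 and -2.48 in replicate 2 (-2.33 ± 0.21, SD, n = 2). The overlapping small RNA entries Gm27301, Gm27834 and Gm27271 were at 0 TPM.

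Smad2 RNA was divided among coding transcripts. Smad2-205, the longest (2857 bases in M4 and 8089 bases in M21, from which exons are given here), took 48.3% of Smad2 TPM in replicate 1 and 42.7% in replicate 2, Smad2-202 took 34.7% and 28.9%, and Smad2-206, of 972 bases, took 17.0% and 28.4%. Smad2-202 lacks exon 3 of Smad2-205, which is 90 coding bases or 30 codons (mm10 chr18:76286860-76286949); this exon lies in the DNA-binding domain, and the form without it is the one known to bind DNA directly. Of the TPM of Smad2-202 and Smad2-205 together, Smad2-202 held 41.8% in replicate 1 and 40.3% in replicate 2, a share of 41.0% ± 1.10 (SD, n = 2). By the authors' estimate both forms were thus present, with the form that holds exon 3 ahead in each library. Of the gene's expected counts, Smad2-202 held 26.4% and 23.7% and Smad2-205 held 66.4% and 63.4%. The forms also differ in their first and last exons, so these shares rest on whole transcripts and not on exon 3 alone. Whether Smad2-206 holds exon 3 is not reported here. Smad3 was almost all Smad3-201, with 100% and 85.9% of TPM, and the 14.1% that replicate 2 gave to the 429-base Smad3-202 rested on 2.43 expected counts. Smad1-202 took 100% of Smad1 TPM in both libraries.

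**Figure D3:**
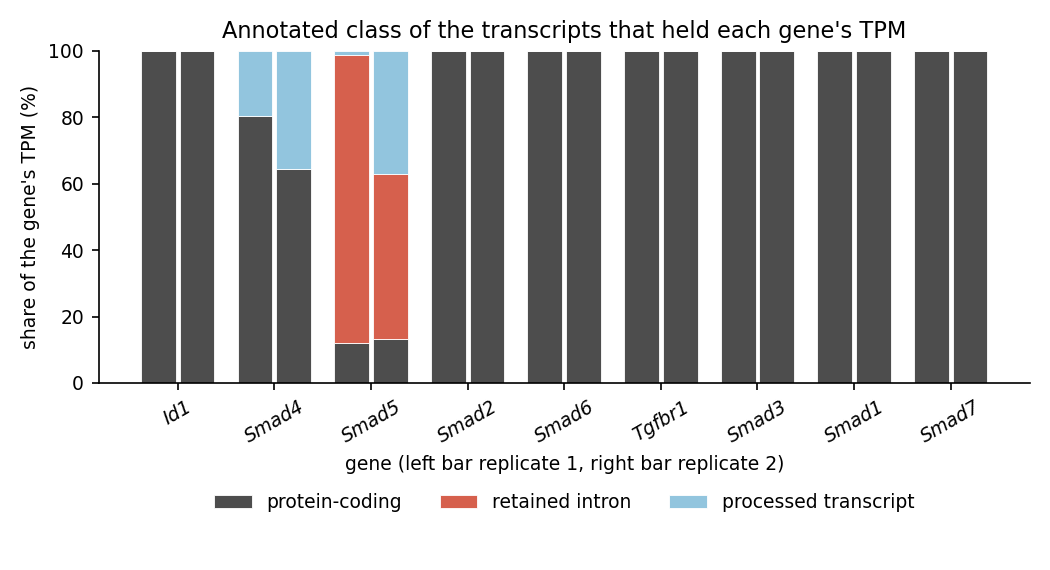
Share of each gene's TPM (percent) held by protein-coding, retained intron and processed transcripts, with replicate 1 as the left bar and replicate 2 as the right bar of each gene. Smad5 is mostly not protein-coding in both libraries, Smad4 is 19.7% and 35.6% processed transcript, and the other genes are wholly protein-coding; Tgfbr2 is left out because it is at 0.

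Smad4, the shared partner of all receptor-regulated SMADs (ENSMUSG00000024515.9, minus strand, mm10 chr18:73639009-73703780), was the most abundant SMAD. It had 21.8 TPM from 3256 counts in replicate 1 and 24.6 TPM from 3838 counts in replicate 2, a mean of 23.2 ± 1.96 TPM (SD, n = 2). Its range did not overlap that of any other SMAD, and its mean was 5.55-fold that of Smad5. With protein-coding transcripts only, Smad2 (3.17 and 4.09 TPM) and not Smad5 (0.48 and 0.57 TPM) came next after Smad4. It made up 72.6% of the summed TPM of Smad1 to Smad5 in replicate 1 and 71.8% in replicate 2 (72.2% ± 0.563, SD, n = 2). The coding transcript Smad4-201 took 80.3% and 64.4% of Smad4 TPM. The 487-base processed transcript Smad4-204, from the 3′ part of the gene, took 19.7% and 35.0%, although it held 2.53% and 5.38% of the counts, because few counts on a short RNA give a high TPM. Smad4-201 alone was at 17.5 TPM in replicate 1 and 15.9 TPM in replicate 2, so it was higher in replicate 1 while the whole gene's TPM was higher in replicate 2.

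The inhibitory SMADs were Smad6 and almost no Smad7. Smad6 (ENSMUSG00000036867.7), which acts mainly on BMP signals, had 2.07 TPM from 327 counts in replicate 1 and 1.62 TPM from 324 counts in replicate 2, all from Smad6-201. Smad7 (ENSMUSG00000025880.7), which acts on both branches, had 2 counts in replicate 1 and 7 counts in replicate 2. Of the counts of Smad6 and Smad7 together, Smad7 held 0.608% in replicate 1 (exact Clopper-Pearson 95% interval 0.0737 to 2.18%) and 2.11% in replicate 2 (0.854 to 4.31%). In TPM the log2 ratio of Smad7 to Smad6 was -7.69 and -5.75 (-6.72 ± 1.37, SD, n = 2), which rests on these few counts and on TPM values given to 2 decimals. Smad7-201 took 100% and 64.0% of Smad7 TPM and Smad7-202 took 0% and 36%, from 1.34 counts, so the division is within counting error.

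Id1, whose product binds and blocks the basic helix-loop-helix factors that drive differentiation, was the most abundant of the 10 genes. Id1 (ENSMUSG00000042745.9, plus strand, mm10 chr2:152736251-152737410) had 108 TPM from 4815 counts in replicate 1 and 111 TPM from 6185 counts in replicate 2, a mean of 109 ± 1.73 TPM (SD, n = 2). Its relatives were not detected: Id2 was at 0.02 and 0 TPM, and Id3 and Id4 had no counts in either library. Id1 was therefore the only ID gene of 4 detected. The spliced form Id1-201 took 97.1% and 98.2% of Id1 TPM. The unspliced Id1-202, named after its values were seen, took 2.91% and 1.83%. The forms part at the end of exon 1, where Id1-202 runs through the 226-base intron (mm10 chr2:152736746-152736971, plus strand), and bases after exon 1 are in capitals.
Id1-201: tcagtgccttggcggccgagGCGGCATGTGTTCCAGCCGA
Id1-202: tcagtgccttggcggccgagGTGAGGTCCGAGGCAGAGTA
The form with the capitals of exon 2 thus held all but a few percent of Id1 RNA, in contrast to Smad5.

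Genes that act on SMADs after the receptor were mostly present. Of 10 genes for ubiquitin ligases, phosphatases and other SMAD regulators, 7 were detected, led by the SMAD phosphatase Ppm1a (32.7 and 23.5 TPM), the deubiquitinase Usp9x (4.96 and 6.17 TPM) and the ligase Trim33 (4.79 and 4.86 TPM). Pmepa1, a target that limits SMAD activation, had no counts. Of 10 nuclear partners, 9 were detected. Foxh1, a forkhead partner of SMAD2 known from the early embryo, had 125 and 122 TPM, and Ski, a corepressor that binds SMADs, had 41.8 and 41.3 TPM. The corepressor gene Tgif2 had 59.8 and 77.9 TPM, of which 12.7 and 13.6 TPM were from protein-coding transcripts, below the 21 and 24 TPM of such transcripts of Ep300, a coactivator gene named after its values were seen. Of 10 other target genes, 5 were detected. Cdkn1a, a cell cycle inhibitor that many signals induce, had 156 and 183 TPM, the AP-1 gene Junb had 75.9 and 66.3 TPM, and Tsc22d1 had 6.72 and 6.95 TPM, while Ccn2, a common readout of TGF-beta in fibroblasts, had no counts. Over all 87 other pathway genes, 33 were detected, 14 were at 10 TPM or more, and 24 had no counts in either library. Among all protein-coding genes these shares were 40%, 24.3% and 39.4%, so the 87 were detected about as often as protein-coding genes at large. All of these lists are described and not tested, and several of their genes answer to many other signals.

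Of the 10 genes, 8 had enough counts to compare the libraries, while Smad7 and Tgfbr2 did not. Differences were tested over all genes on rounded counts with TMM scaling, by an exact binomial test (two-sided, conditional on each gene's total) with Benjamini-Hochberg adjustment, and a call needed an adjusted p under 0.05 and at least a 2-fold difference. Of the 8 genes, 0 were called, where 5.62% of 11636 genes tested over the whole table were called, 1.8% higher in replicate 1 and 3.82% higher in replicate 2, so at that share a count of 0 among 8 says little about these genes. Their log2 ratios of replicate 1 over replicate 2 ran from -0.09 for Smad2 to 0.51 for Smad6, with a median of 0.14 against -0.01 over all genes tested. The median size of the ratio was 0.14 for these genes and 0.27 for all. Without the fold requirement 3 passed, all higher in replicate 1, where 64.4% of genes passed in either direction and 32.2% were higher in replicate 1. The same 3 had an unadjusted p under 0.05, and the edgeR exact test also called 0 of the 8, with a dispersion that comes from the difference of these same libraries and so carries no independent error. These were Smad6 (adjusted p = 1.74e-05), Smad4 at 0.26 (adjusted p = 1.23e-13) and Id1 at 0.14 (adjusted p = 1.85e-06) by the exact binomial test. For Smad4 and Id1 the deposited TPM was higher in replicate 2 while the scaled counts were higher in replicate 1. The effective length that the authors gave Smad4 was 2670 bases in replicate 1 and 2206 bases in replicate 2. For Id1 the lengths were close, at 797 and 790 bases. TPM was also computed with 1 effective length per gene, the mean of both libraries. It was then 24.2 and 22.1 TPM for Smad4 and 109.87 and 109.45 TPM for Id1, higher in replicate 1 for both. The TMM factors, 0.960 and 1.04, raise every gene's ratio of replicate 1 over replicate 2 by construction, and neither TPM uses them. How much each step adds to the difference was not tested. Of the 41 other pathway genes tested, 1 was called, where 5.62% of all genes tested were. This was Ltbp3, with 0 counts in replicate 1 and 11 in replicate 2. Its log2 ratio was -1.38 or lower when 3 counts stand for the 0 (adjusted p = 0.00969, exact binomial test). That test sees no error beyond counting, and the common coefficient of variation beyond counting error was 0.224.

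**Figure D4:**
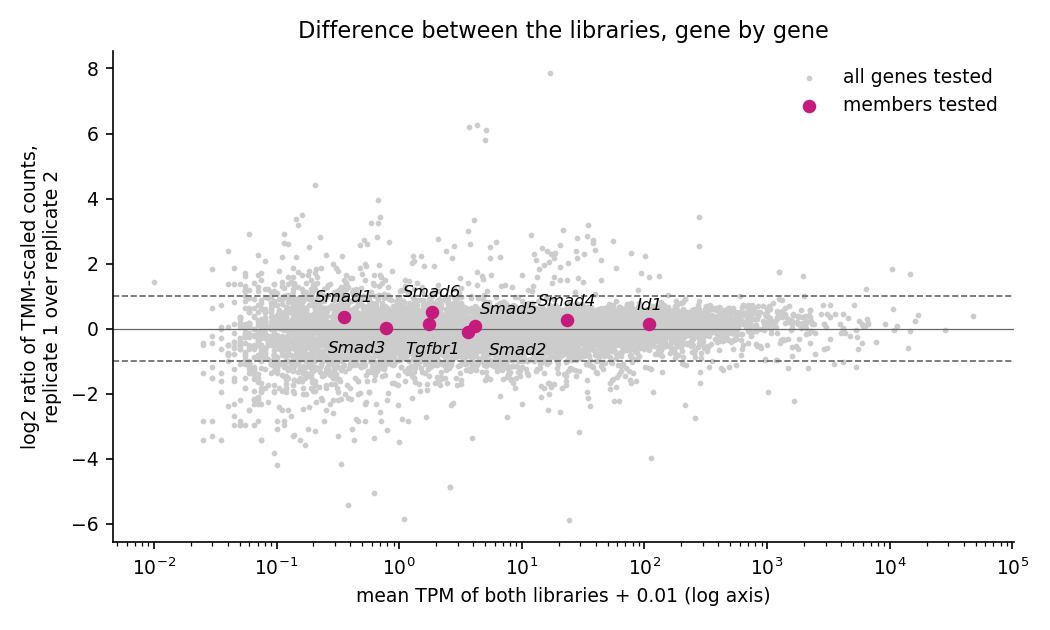
Log2 ratio of TMM-scaled counts, replicate 1 over replicate 2, against mean TPM (plus 0.01, log axis) for every gene tested (grey) and for the 8 members tested (coloured), with dashed lines at a 2-fold difference. All 8 lie between the dashed lines, from -0.09 for Smad2 to 0.51 for Smad6.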

How the data were processed

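Polyadenylated RNA of the mouse line G1E was measured in 2 paired-end libraries of 1 group. For each library the authors deposited a gene table and a transcript table on mm10 with annotation M4, made from that library's transcriptome alignments per the deposited descriptions; the names of the columns are RSEM's, but which aligner and counter were run is not given in the sources used here. The deposited expected counts divide reads shared between features by a model and need not be whole. The authors' TPM, and FPKM in an alternative, are scaled by effective length and library total, per the file headers. The deposited percent per transcript (IsoPct) is its share of the gene's TPM.

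Of 43346 gene entries, 42462 (98.0%) matched GENCODE M21 by identifier; 146 of 146 listed symbols matched, 1 of them, Hjv, through a RefSeq synonym. Detection means 1 TPM or more in both libraries. Means and SDs are over the libraries. With 1 group no condition was tested, and with 1 library a side no fit has residual error. The libraries were compared for genes with at least 10 counts in either, on rounded expected counts, with TMM factors (0.960 and 1.04) from edgeR 4.0.16 in R 4.3.3; the alternatives used DESeq2 1.42.0 size factors and other settings. The exact test was checked on simulated counts that held counting error only, so that check does not cover variation beyond counting. SciPy 1.17.1 gave the exact tests, under Python 3.11.15 with NumPy 2.4.6; tables were handled with pandas 2.3.3 and figures drawn with matplotlib 3.10.9. Splice-site sequences came from M21 and upstream sequences from RefSeq (GRCm38.p6), in which 6 of the 10 genes had windows; no window is held here for Smad2, Smad4, Smad7 and Id1.

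Named are all 10 genes, the 3 of highest mean TPM, any called and those at 0 counts in each pathway list, and transcripts that lead or hold 10% or more of a gene's TPM. Some list genes that the rule would name are not reported here. The genes and lists were chosen with earlier results of these data known.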

Additional observations from a re-analysis of the deposited data

How the results depend on the processing

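Detection of the 10 genes gave 6 by posterior mean TPM, by FPKM and without either replicate, 7 at a threshold of 0.5 TPM, 5 with protein-coding transcripts only and 2 at 5 TPM. For the 87 other pathway genes the count stayed between 31 and 35, except for 19 at 5 TPM. No member was called under other scalings, count minimums, a 4-fold requirement or edgeR's negative binomial exact test, whose dispersion comes from these same 2 libraries, and 3 passed with no fold requirement. Over all genes the calls were 654, against 421 at a minimum of 50 counts, 169 at 4-fold, 114 by edgeR's test and 7495 with no fold requirement. The log2 ratio of Smad1 plus Smad5 to Smad2 plus Smad3 was 0.87 from counts per length of the leading transcripts and -2.33 with protein-coding transcripts only, so its direction is not settled; leaving out a replicate gave -0.09 to 0.18. The log2 ratio of Tgfbr1 to Tgfbr2, 7.20 or 7.57 by library, is set by the limit of 3 counts for Tgfbr2. It leaves out the error of Tgfbr1 and says nothing of stability, and with 1 TPM added to each it was 1.45. That of Smad7 to Smad6 was -7.69 to -5.75 with a replicate left out, -3.78 by posterior mean TPM, which adds signal to genes near 0, and -1.48 with 1 TPM added. The share of Smad4 was 71.8 to 72.6% with a replicate left out, 71.2% by posterior mean TPM, 65.5% from counts per length, 65.2% with 1 TPM added and 76.0% with protein-coding transcripts only. The median share of the leading transcript, 94.2%, was 90.5 to 96.4% with a replicate left out, 97.8% of counts and 78.7% by posterior means. The settings with protein-coding transcripts only were chosen after seeing the data. The cause of these shifts was not tested beyond what each setting changes by construction. No paired analysis was possible because the replicate numbers name 2 libraries of 1 group. Depth limits Smad7 and Tgfbr2, at 7 counts or fewer.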
